A study of Homo sapiens with 18 samples.

Results

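The interleukin-1 (IL-1) family genes IL1A, IL1B, IL1RN, IL1R1, IL1R2, IL1RAP, IL18, IL33, IL36G and IL36RN were examined in head and neck squamous cell carcinoma (HNSCC) cells stimulated with hepatocyte growth factor (HGF), the ligand of the receptor tyrosine kinase Met. They were chosen by symbol, and all 10 were among the 19901 genes of the deposited count table. The mRNA of 3 established cell lines was sequenced, namely Detroit 562, from a pleural effusion of a metastatic pharyngeal tumor, FaDu, from a primary hypopharyngeal tumor, and SCC-9, from a primary tumor of the tongue. In each line 3 libraries came from untreated cells and 3 from cells given 50 ng/mL HGF. HGF was given for 16 h according to the sample records and the study's methods, and for 48 h according to the series record. No allele, transgene or second agent differed between control and HGF, but SCC-9 was grown in another medium, to which hydrocortisone was added, so that the line and its medium cannot be told apart. Each line stands for a single tumor. The study's methods state that the experiment was repeated, and the labels number the 3 libraries of a group without saying what a number stands for, so the tests measure the spread between repeats within a line.

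IL-1α (IL1A) and IL-1β (IL1B) are inflammatory cytokines that bind the receptor IL1R1, which signals with its partner chain IL1RAP through MYD88 and IRAK kinases to NF-κB. The receptor antagonist (IL1RN) occupies IL1R1 without signaling, and IL1R2 binds the cytokines but has no signaling domain and acts as a decoy. IL-18 and IL-33 have receptors of their own, and the IL-36 cytokines, among them IL-36γ (IL36G), act on keratinocytes and are opposed by the antagonist IL36RN. Squamous epithelium stores IL-1α and IL-18 and releases them on damage, and the inflammasome protease caspase-1 (CASP1) cuts IL-1β and IL-18 to their active forms.

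Of the 10 genes, 7 lie in 2 clusters on the long arm of chromosome 2 of GRCh38. The receptor cluster runs from IL1R2 (ENSG00000115590.13, chromosome 2, 101991844 to 102028544, plus strand) to IL1R1 (ENSG00000115594.11, 102064544 to 102179874, plus), 36 kb further on, and goes on through IL1RL2, IL1RL1, IL18R1 and IL18RAP. The cytokine cluster begins with IL1A (ENSG00000115008.5, 112773915 to 112784590, minus) and IL1B (ENSG00000125538.11, 112829751 to 112836903, minus), 45.2 kb apart, and holds IL36G (ENSG00000136688.10, 112973203 to 112985665, plus), IL36RN (ENSG00000136695.14, 113058638 to 113065382, plus) and IL1RN (ENSG00000136689.18, 113107214 to 113134016, plus). IL1RAP (ENSG00000196083.9) is on chromosome 3, 190514051 to 190659750, plus strand, IL18 (ENSG00000150782.11) on chromosome 11, 112143251 to 112164117, minus, and IL33 (ENSG00000137033.11) on chromosome 9, 6215786 to 6257983, plus. Counts were taken over the whole extent of a gene, introns included, on its own strand. None of the 10 overlaps another counted gene on its strand.

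IL1A, IL1B and IL1R2 rose together with HGF in Detroit 562, as described further on, and the 250 bases before a RefSeq start site of each are shown 5′ to 3′ on the gene's strand, from the GRCh38.p14 annotation. Capitals mark a match to the AP-1 motif TGANTCA in IL1A and to the NF-κB consensus in IL1R2, both searched on both strands, and no 2 matches overlap. The stretches are chr2:112784494-112784743 (minus strand) for IL1A, chr2:112836780-112837029 (minus) for IL1B and chr2:101991710-101991959 (plus) for IL1R2.
IL1A: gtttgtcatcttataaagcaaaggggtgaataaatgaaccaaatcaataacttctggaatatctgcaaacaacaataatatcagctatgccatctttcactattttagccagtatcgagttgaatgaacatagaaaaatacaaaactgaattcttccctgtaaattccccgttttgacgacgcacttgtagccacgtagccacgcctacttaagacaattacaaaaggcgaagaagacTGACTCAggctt
IL1B: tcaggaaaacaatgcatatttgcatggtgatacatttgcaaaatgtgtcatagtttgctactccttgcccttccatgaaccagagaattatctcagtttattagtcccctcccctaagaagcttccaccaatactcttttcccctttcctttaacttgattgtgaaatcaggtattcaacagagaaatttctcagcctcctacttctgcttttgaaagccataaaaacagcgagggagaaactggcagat
IL1R2: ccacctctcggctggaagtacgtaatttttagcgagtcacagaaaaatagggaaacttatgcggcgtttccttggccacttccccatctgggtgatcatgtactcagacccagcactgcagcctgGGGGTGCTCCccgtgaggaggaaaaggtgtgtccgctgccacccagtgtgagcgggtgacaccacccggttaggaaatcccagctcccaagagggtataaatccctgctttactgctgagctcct

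The AP-1 match of IL1A begins 12 bases before the start site, and a second match begins at base 39 counted from the start site as base 1, beyond the printed stretch. RefSeq promoters of 300 bases (250 before and 50 after the start site) were found for 9 of the 10 genes, 18 promoters in all, and not for IL18. Among them, AP-1 was also matched in 1 promoter of IL1RN, NF-κB was also matched in 1 promoter of IL36RN, and IL1B, IL1R1, IL1RAP, IL33 and IL36G had neither. The other promoter of IL1R2, which is not printed, had neither motif. The other promoter of IL1A overlaps the printed one and held the same 2 AP-1 matches. Of 35116 promoters of the same length, 7.71% held the AP-1 motif and 11.3% the NF-κB motif. A match describes letters only, and its absence says nothing about either factor.

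Total counts were 35304770 to 44003970 per library (median 40138919). Levels are given as CPM, counts scaled to the size of each library with TMM factors. DUSP6, a phosphatase gene that ERK signaling induces, rose with HGF in Detroit 562 (log2 fold change 1.53, adjusted p = 0.000247) and FaDu (1.44, adjusted p = 0.0115). Its value in SCC-9 was 0.47 (adjusted p = 1, and 0.00766 with same-numbered control and HGF libraries compared as pairs, which is called the replicate block from here on). Adjusted p values come from edgeR (quasi-likelihood test, Benjamini-Hochberg over the 15475 genes tested). Calls between groups required a value under 0.1 and a log2 difference of 0.4 or more, up or down. The squamous markers KRT5, KRT6A and TP63 were abundant in all lines, whereas KRT14 was at 0.852 to 1.43 CPM in Detroit 562. Of 6 leukocyte markers, CD68 had 707 to 2441 counts per library, ITGAM 8 to 42 and CD14 1 to 413, and PTPRC, CD3E and LYZ had at most 5. Of 6 fibroblast markers, COL1A1 had 140 to 3646 counts, COL1A2 0 to 1396 and DCN 0 to 73, and COL3A1, PDGFRB and LUM had at most 10.

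Untreated lines differed in most of these genes, as they did in most of all genes tested (61.0% to 65.4% called in each comparison). Levels per kilobase of exon compare genes with each other only roughly, because the counts include introns. On this scale IL1A was at 0.490 ± 0.103 CPM (SD, n = 3 for every mean here) for Detroit 562, 17.7 ± 3.59 for FaDu and 29.4 ± 9.65 for SCC-9. IL1B followed the same order, at 0.0659 ± 0.0141, 16.1 ± 3.81 and 27.4 ± 1.65 CPM per kb. The antagonist IL1RN was instead highest in FaDu with 7.59 ± 1.70 CPM per kb, followed by Detroit 562 with 3.04 ± 0.163 and SCC-9 with 0.712 ± 0.206. The receptor IL1R1 was at 14.3 ± 2.63 CPM per kb in SCC-9, 7.01 ± 1.94 in Detroit 562 and 0.0878 ± 0.0285 in FaDu. Thus FaDu held both cytokines and the antagonist with 20 to 36 receptor counts per untreated library, and Detroit 562 held the receptor with 6 to 9 IL1B counts per library.

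**Figure D1:**
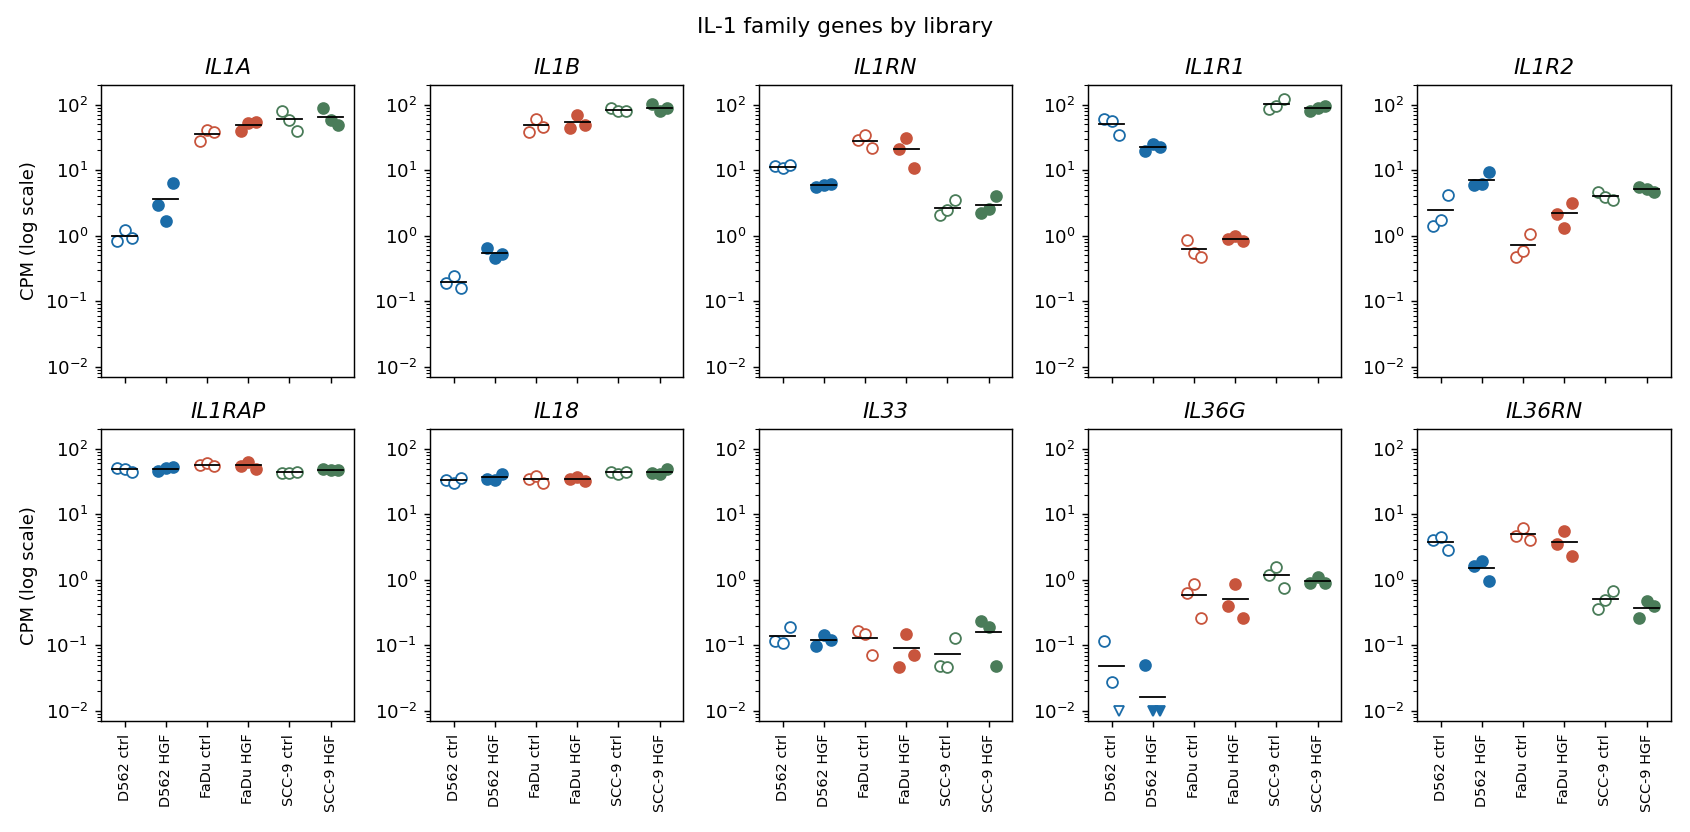
Each panel plots the CPM of a gene on a log axis by library, with open circles for control, filled circles for HGF, triangles at the bottom for libraries with 0 counts and a line at the group mean (D562 is Detroit 562). IL1A and IL1B in Detroit 562 lay below every library of the other lines, IL1R1 in FaDu lay below 1 CPM in all 6 libraries, and IL1RAP and IL18 were nearly level throughout.

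The comparisons of untreated lines called 6 of the 9 genes tested between Detroit 562 and FaDu (61.0% of all genes were called), 7 between Detroit 562 and SCC-9 (65.4%) and 8 between FaDu and SCC-9 (64.2%), shares that are near or above those of all genes. IL33, an alarmin released by damaged epithelium, had 2 to 10 counts in each of the 18 libraries and was not tested. IL1B in Detroit 562 was 242-fold lower than in FaDu (log2 -7.92 ± 0.28, SE, adjusted p = 3.12e-13) and 410-fold lower than in SCC-9 (log2 -8.68 ± 0.28, adjusted p = 7.66e-14). IL1A was 36.2-fold and 60.3-fold lower (log2 -5.18 ± 0.43 and -5.91 ± 0.43, adjusted p = 1.12e-08 and 1.92e-09). FaDu exceeded SCC-9 in neither cytokine, with IL1A at log2 -0.74 ± 0.31 (adjusted p = 0.0421) and IL1B at -0.76 ± 0.16 (adjusted p = 0.000361). The IL1A call between these lines was lost without FaDu control 1 (-0.58, adjusted p = 0.148), without SCC-9 control 1 (-0.47, adjusted p = 0.221) and with DESeq2 (adjusted p = 0.103 or 0.110).

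IL1R1 was 79.4-fold higher in untreated Detroit 562 than in FaDu (log2 6.31 ± 0.26, adjusted p = 1.74e-12) and 162-fold lower in FaDu than in SCC-9 (-7.34 ± 0.26, adjusted p = 2.80e-13). Detroit 562 had 2.04-fold less IL1R1 than SCC-9 (-1.03 ± 0.17, adjusted p = 4.61e-05). The decoy IL1R2 was much lower than IL1R1 in both of these lines, at 0.826 ± 0.510 CPM per kb in Detroit 562 and 1.34 ± 0.193 in SCC-9, whereas in FaDu the decoy was the higher of the pair with 0.240 ± 0.110. IL1R2 differed between FaDu and each of the others (log2 1.77 ± 0.42 for Detroit 562 against FaDu, adjusted p = 0.00118, and -2.48 ± 0.41 for FaDu against SCC-9, adjusted p = 3.65e-05). Its call between Detroit 562 and SCC-9 (-0.71 ± 0.36, adjusted p = 0.0852) was lost without Detroit 562 control 1 (-0.43, adjusted p = 0.316) or 2 (-0.52, adjusted p = 0.257) and without SCC-9 control 1 (-0.59, adjusted p = 0.209) or 2 (-0.73, adjusted p = 0.128).

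Both antagonists were low in SCC-9. IL1RN was 10.7-fold higher in FaDu and 4.27-fold higher in Detroit 562 than in SCC-9 (log2 3.42 ± 0.32 and 2.10 ± 0.32, adjusted p = 5.44e-08 and 1.48e-05), and Detroit 562 had 2.5-fold less than FaDu (-1.32 ± 0.29, adjusted p = 0.000597). IL36RN was 9.66-fold and 7.33-fold higher in the same lines than in SCC-9 (3.27 ± 0.36 and 2.87 ± 0.36, adjusted p = 3.12e-07 and 1.49e-06). Its level in Detroit 562 and FaDu did not differ beyond the threshold (-0.40 ± 0.30, adjusted p = 0.238). IL36G, the cytokine that IL36RN opposes, had 0 to 5 counts in untreated Detroit 562, 11 to 34 in FaDu and 30 to 65 in SCC-9. Its difference between FaDu and SCC-9 (-1.01 ± 0.46, adjusted p = 0.0590) was lost without FaDu control 3 (-0.65, adjusted p = 0.221), SCC-9 control 1 (-0.99, adjusted p = 0.108) or SCC-9 control 2 (-0.75, adjusted p = 0.212).

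IL1RAP and IL18 varied least among the lines. IL1RAP was at 48.4 ± 3.54 CPM in untreated Detroit 562, 57.6 ± 3.62 CPM in FaDu and 43.6 ± 0.956 CPM in untreated SCC-9. FaDu and SCC-9 differed (log2 0.40 ± 0.09, adjusted p = 0.000541) at the threshold of size, and the value fell under it without FaDu control 2 (0.35) or SCC-9 control 2 (0.39). IL18 was at 33.2 ± 3.09, 34.8 ± 4.16 and 43.8 ± 1.79 CPM. It was lower in Detroit 562 than in SCC-9 by 0.40 on the log2 scale (adjusted p = 0.00199), just under the threshold of size, and on the length scale it was the most abundant of the 10 genes in untreated Detroit 562 with 12.8 ± 1.19 CPM per kb.

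With HGF, 6 of the 9 tested genes changed in Detroit 562. The cytokines IL1A and IL1B and the decoy IL1R2 rose, in a line where 6.16% of all genes were called up. The antagonists IL1RN and IL36RN and the receptor IL1R1 fell, where 11.7% of all genes were called down. The median log2 fold change of the 9 genes was 0.03, beside -0.01 for all genes. The same 6 genes were called with the replicate block (7.13% of all genes up and 14.4% down).

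Among the ligands, IL1A was at 0.825, 1.22 and 0.916 CPM in the untreated Detroit 562 libraries and at 2.89, 1.65 and 6.36 CPM in the HGF libraries. The groups did not overlap, and HGF library 3 stood highest. The rise was 3.65-fold (log2 1.87 ± 0.48, SE, adjusted p = 0.0106), and without HGF library 3 it was 1.22 on the log2 scale (adjusted p = 0.0812). IL1B had 8, 9 and 6 counts in the control libraries and 26, 16 and 17 in the HGF libraries, again without overlap. Its log2 fold change of 1.44 ± 0.47 (adjusted p = 0.0338) rested on these low counts and lost its call without control 1 (1.41, adjusted p = 0.110) or HGF library 1 (1.28, adjusted p = 0.103). With HGF, both cytokines still lay below every library of FaDu and SCC-9.

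IL18 did not pass the test in Detroit 562, with 33.8, 29.9 and 36.0 CPM in control and 34.7, 33.4 and 41.8 CPM in HGF libraries (log2 0.14, 95% interval -0.06 to 0.34, adjusted p = 0.343). IL36G had 5, 1 and 0 counts in control and 2, 0 and 0 in HGF libraries, too few for a fold. IL33 had 4 to 7 counts in the 6 libraries of this line. Among the ligands, the calls were thus those of IL1A and IL1B, and no test set them against the other ligands.

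The antagonist IL1RN was at 11.6, 10.6 and 11.8 CPM in control and 5.52, 5.96 and 6.15 CPM in HGF-treated Detroit 562. Replicates lay close together within each group and the groups were well apart. The fall was 1.93-fold (log2 -0.95 ± 0.30, adjusted p = 0.0305, and 5.2e-05 with the replicate block). IL36RN was at 4.01, 4.45 and 2.88 CPM in control and 1.63, 1.96 and 0.974 CPM in HGF libraries, a 2.47-fold fall without overlap (log2 -1.31 ± 0.32, adjusted p = 0.00881). In each of the 3 same-numbered pairs both antagonists were lower with HGF.

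The receptor IL1R1 was at 60.2, 55.4 and 34.3 CPM in control and 19.7, 25.4 and 22.9 CPM in HGF-treated Detroit 562, a 2.21-fold fall (log2 -1.14 ± 0.18, adjusted p = 0.0010). The decoy IL1R2 moved the other way, from 1.41, 1.74 and 4.17 CPM to 5.89, 6.22 and 9.28 CPM, a 2.92-fold rise (log2 1.55 ± 0.36, adjusted p = 0.00675). In both genes the groups did not overlap and control library 3 lay nearest to the HGF libraries. Without that library the log2 fold changes were -1.35 for IL1R1 and 2.18 for IL1R2. The co-receptor IL1RAP had 44.4 to 51.2 CPM in control and 45.3 to 52.6 CPM in HGF libraries, which overlapped (log2 0.03, 95% interval -0.14 to 0.20, adjusted p = 0.847).

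In bulk RNA, fewer cells that express a gene and less RNA of it per cell cannot be told apart. Several marker sums moved with HGF. In Detroit 562 the leukocyte sum was 20.7 to 40.8 CPM in control and 37.7 to 56.6 CPM in HGF libraries, the fibroblast sum 29.8 to 54.3 and 15.0 to 27.6 CPM, the sum of 3 endothelial markers 1.158 to 2.90 and 0.487 to 1.06 CPM, and that of 7 squamous markers 3043 to 4455 and 2045 to 3319 CPM. Of these, the leukocyte and squamous sums overlapped between control and HGF libraries. The leukocyte sum consisted almost wholly of CD68 in this line, and the fibroblast sum of COL1A1 and COL1A2. In FaDu the leukocyte sum went from 22.7 to 34.7 CPM in control to 35.01 to 40.2 CPM in HGF libraries, without overlap. The part of these shifts in the members' values was not tested.

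**Figure D2:**
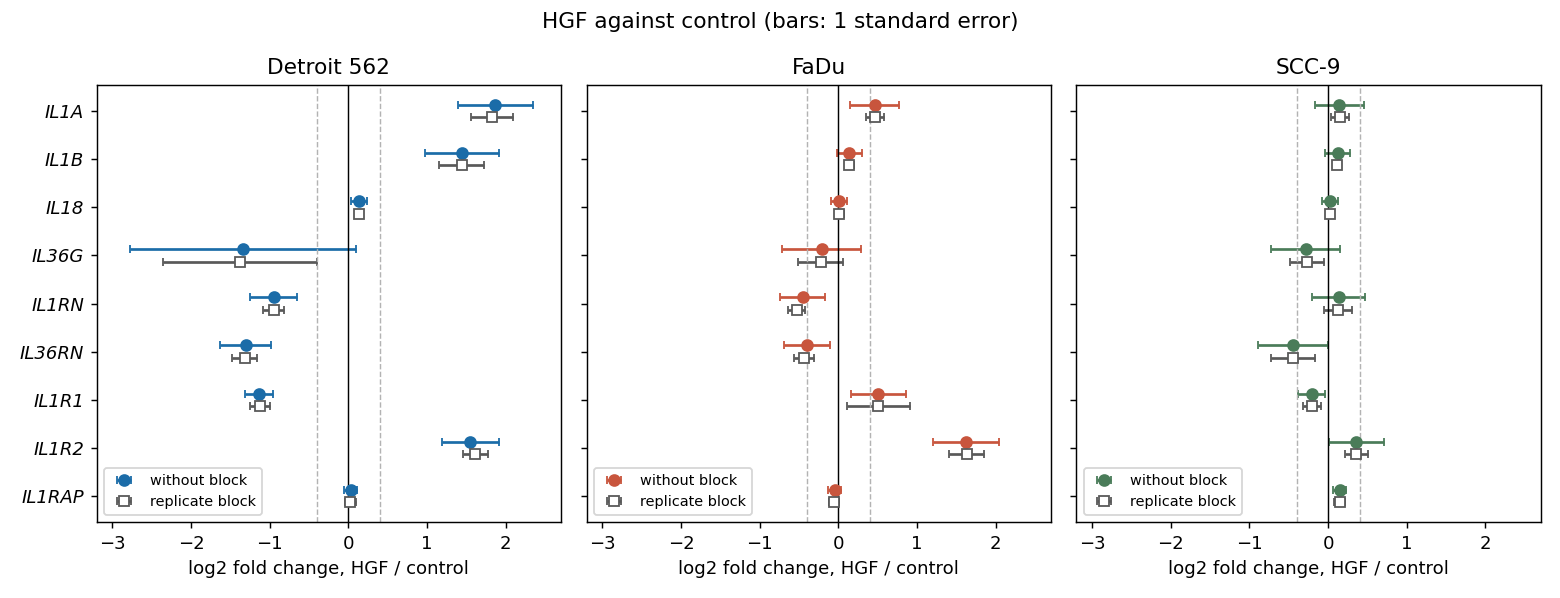
Points give the log2 fold change of HGF against control for the 9 genes tested, filled without and open with the replicate block, bars give 1 standard error, and dashed lines stand at 0.4 in either direction. IL1A, IL1B and IL1R2 lay to the right and IL1RN, IL36RN and IL1R1 to the left in Detroit 562, and IL1R2 in FaDu lay at 1.63 (IL36G in Detroit 562 rests on 0 to 5 counts per library).

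In FaDu none of the 9 genes was called, where 0.0258% of all genes (4 genes) were called and 1247 genes had an unadjusted p under 0.05. IL1R2 nevertheless stood apart, at 0.475, 0.578 and 1.08 CPM in control and 2.18, 1.31 and 3.12 CPM in HGF libraries. The groups did not overlap, and the log2 fold change of 1.63 ± 0.42 was close to that in Detroit 562 (adjusted p = 0.388 without the block, 0.000402 with it, and 0.0182 and 0.0157 with DESeq2 without and with its fold change prior). With the replicate block 4 genes were called, where 5.60% of all genes were. IL1R2 and IL1A (0.47, adjusted p = 0.0208) rose in that fit, and IL1RN (-0.53, adjusted p = 0.00689) and IL36RN (-0.44, adjusted p = 0.0431) fell.

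These 4 genes had overlapping groups in FaDu except for IL1R2. IL1A was at 27.4, 41.2 and 38.3 CPM in control and 39.1, 53.4 and 54.7 CPM in HGF libraries, higher in all 3 same-numbered pairs. IL1RN was at 29.3, 34.2 and 21.6 CPM in control and 20.8, 30.7 and 10.6 CPM in HGF libraries, lower in all 3 pairs. IL36RN went from 4.72, 6.25 and 3.99 CPM to 3.55, 5.51 and 2.30 CPM, also lower in all 3 pairs. For IL1RN and IL36RN the 3 libraries kept the same order by number in both groups, and for IL1A library 1 was the lowest in both, spread of the kind that the block takes out.

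IL1B in FaDu was at 38.4, 61.0 and 46.4 CPM in control and 44.01, 68.4 and 48.4 CPM in HGF libraries and was called in neither fit (log2 0.14, 95% interval -0.17 to 0.45). The receptor IL1R1 stayed near the floor, with 36, 22 and 20 counts in control and 38, 39 and 34 in HGF libraries (log2 0.51, 95% interval -0.17 to 1.2). IL36G had 27, 34 and 11 counts in control and 17, 34 and 11 in HGF libraries. IL1RAP (-0.05, 95% interval -0.22 to 0.12) and IL18 (0.01, 95% interval -0.19 to 0.21) had narrow intervals around 0.

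In SCC-9 none of the 9 genes was called in either fit, where 0% of all genes were called without the block (641 genes had an unadjusted p under 0.05) and 1.97% with it. DESeq2 called none of the 9 either. IL1A was at 79.1, 58.8 and 40.2 CPM in control and 88.3, 58.5 and 49.6 CPM in HGF libraries, and IL1B at 88.1, 80.1 and 79.0 CPM and 101, 79.0 and 88.7 CPM, with overlap in both. IL1RN was at 2.03, 2.42 and 3.52 CPM and 2.22, 2.55 and 3.98 CPM (log2 0.14, 95% interval -0.52 to 0.80). IL1R1 was at 86.9, 96.2 and 123 CPM in control and 80.0, 87.4 and 97.0 CPM in HGF libraries, lower in all 3 pairs (-0.21, 95% interval -0.55 to 0.13). IL1RAP was at 43.4, 42.8 and 44.6 CPM in control and 49.2, 47.7 and 47.7 CPM in HGF libraries. It was higher in all 3 pairs and without overlap, at a log2 fold change of 0.15 (95% interval -0.03 to 0.32, adjusted p = 1, and 0.315 with the block). IL18 gave 0.02 (95% interval -0.18 to 0.22).

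IL1R2 in SCC-9 was at 4.59, 3.87 and 3.47 CPM in control and 5.57, 5.13 and 4.59 CPM in HGF libraries, higher in all 3 pairs by 0.28 to 0.41 on the log2 scale, with an overall value of 0.36 (95% interval -0.33 to 1.04, adjusted p = 1, and 0.250 with the block). IL36RN had 15, 21 and 27 counts in control and 11, 20 and 16 in HGF libraries, and IL36G 50, 65 and 30 counts and 37, 47 and 36 counts. Neither passed the test (log2 -0.44, 95% interval -1.31 to 0.42, and -0.29, 95% interval -1.15 to 0.58).

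Over the 9 same-numbered pairs of the 3 lines, IL1R2 was higher with HGF in 9 and IL36RN lower in 9. IL1A and IL1B were higher in 8 each, IL1RAP and IL18 in 6 each, and IL1RN and IL1R1 were lower in 6 each. These counts include pairs from lines in which the gene was not called. Pairs from different lines are not repeats of a single condition. The same tally was not made for all genes, so how unusual such counts are is not known.

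Whether the response differed between lines was tested directly. Without the block, no gene of the family differed between Detroit 562 and FaDu (0.239% of all genes did, 1788 had an unadjusted p under 0.05), between Detroit 562 and SCC-9 (0.924% and 2378 genes) or between FaDu and SCC-9 (0% and 337 genes). The nearest was IL1R1, whose log2 fold change was lower in Detroit 562 than in FaDu by 1.65 ± 0.39 (adjusted p = 0.134) and than in SCC-9 by 0.93 ± 0.25 (adjusted p = 0.122). Without Detroit 562 control 3 both of these differences were called, at -1.86 (adjusted p = 0.0196) and -1.14 (adjusted p = 0.00942), together with that of IL1R2 between Detroit 562 and SCC-9 (1.82, adjusted p = 0.0359). DESeq2 called IL1R1 between Detroit 562 and FaDu (adjusted p = 0.00101), IL1R1, IL1A and IL1B between Detroit 562 and SCC-9 (adjusted p = 0.0345, 0.0899 and 0.0719) and no gene of the family between FaDu and SCC-9. The share of all genes called was not taken for DESeq2 or for the fit without control 3.

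With the replicate block the response of 4 genes differed between Detroit 562 and FaDu (19.1% of all genes did), of 6 between Detroit 562 and SCC-9 (26.9%) and of 1 between FaDu and SCC-9 (1.32%). IL1A responded more in Detroit 562 than in FaDu by 1.36 (adjusted p = 0.0103) and than in SCC-9 by 1.68 (adjusted p = 0.00167) on the log2 scale. IL1B did so by 1.30 (adjusted p = 0.0114) and 1.33 (adjusted p = 0.00653). Both are ratios to low control levels in Detroit 562, with means of 0.988 CPM for IL1A and 0.198 CPM for IL1B. IL1R1 was lower by 1.63 (adjusted p = 0.0231) and 0.92 (adjusted p = 0.00238), and IL36RN by 0.88 in both cases (adjusted p = 0.0136 and 0.0765). IL1RN differed from SCC-9 (-1.08, adjusted p = 0.00453) and not beyond the threshold from FaDu (-0.42, adjusted p = 0.133).

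The decoy receptor followed another order. The response of IL1R2 differed between Detroit 562 and SCC-9 (1.25, adjusted p = 0.00155) and between FaDu and SCC-9 (1.27, adjusted p = 0.0451) in the blocked fit, and between Detroit 562 and FaDu it was -0.02 (adjusted p = 0.976), with an interval of -1.12 to 0.97 without the block. The comparisons share libraries, so their values are given side by side only.

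The balance of agonist to antagonist and of receptor to decoy was expressed as ratios of CPM per kb, chosen after the values of the single genes were seen. In Detroit 562 IL1A per IL1RN had a geometric mean of 0.159 in control (0.132 to 0.213) and 0.983 in HGF libraries (0.511 to 1.92). IL1B per IL1RN went from 0.0214 to 0.113, and IL1R1 per IL1R2 from 9.27 (3.41 to 17.7) to 1.34 (1.03 to 1.69). For each of these ratios the groups did not overlap, and a two-sided exact permutation test gave p = 0.1, the smallest that 3 against 3 libraries allow. The single genes already lay apart in opposite directions, so this outcome was fixed by them and adds no separate support. IL1A per IL1B was 7.44 in control (6.53 to 8.45) and 8.73 in HGF libraries (5.41 to 18.3), with overlapping groups (exact permutation p = 0.9).

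In FaDu the ratios moved the same way, IL1A per IL1RN from 2.33 to 4.74, IL1B per IL1RN from 2.13 to 3.45 and IL1R1 per IL1R2 from 0.377 to 0.179, each in all 3 pairs and with overlapping groups (exact permutation p = 0.2). In SCC-9 agonist per antagonist was 40.9 and 41.6 for IL1A and 39.5 and 39.2 for IL1B (exact permutation p = 0.9), and IL1R1 per IL1R2 was 10.6 in control and 7.18 in HGF libraries, lower in all 3 pairs (exact permutation p = 0.2). With HGF, the highest IL1A per IL1RN of Detroit 562 (1.92) lay within the range of untreated FaDu (1.74 to 3.28), and the lowest of untreated SCC-9 was 21.1.

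**Figure D3:**
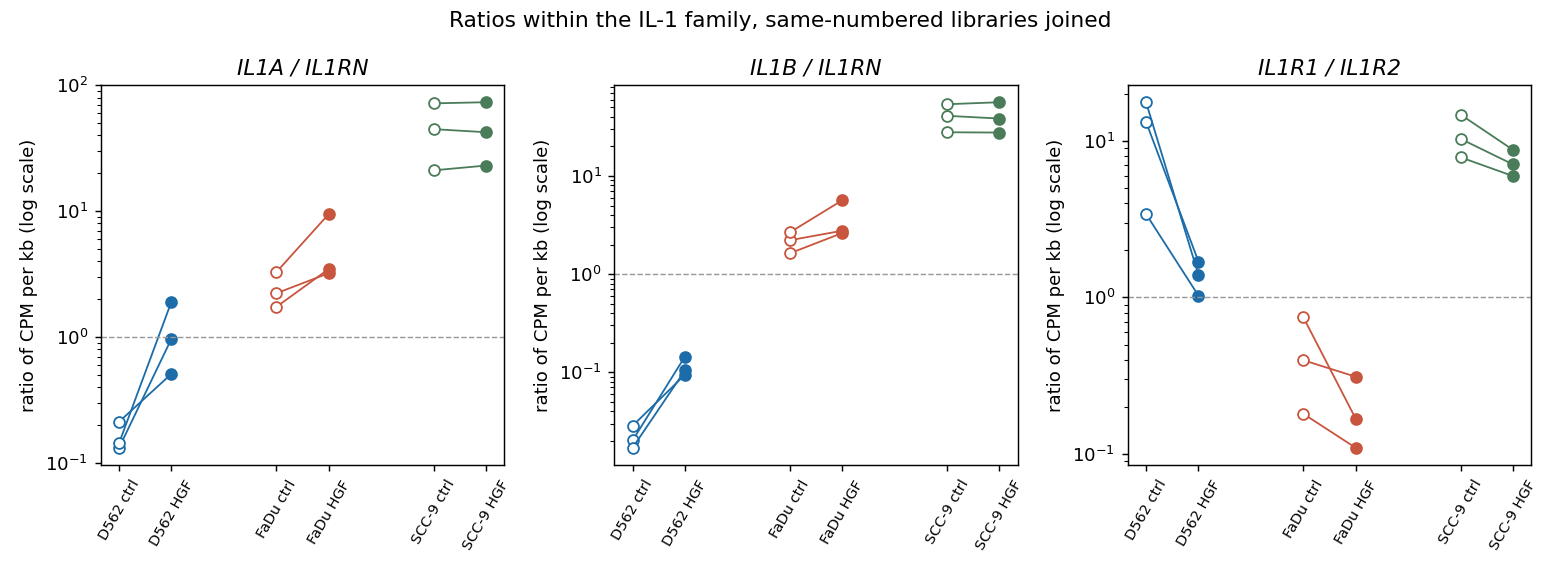
Each panel plots a ratio of CPM per kb on a log axis, with open circles for control, filled circles for HGF, lines joining same-numbered libraries and a dashed line at 1. Cytokine per antagonist rose in all 3 pairs of Detroit 562 and of FaDu, and the cytokine ratios of SCC-9 were level. Receptor per decoy fell in all 3 pairs of each line, SCC-9 included.

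Beyond the family members examined, 29 genes of the same pathway were listed by name, of which 23 were tested. In Detroit 562 the receptor genes IL1RL1 and IL18R1 were called up and CASP1 and TAB3 down, against the 6.16% and 11.7% of all genes above, and the median log2 fold change of the 23 was 0.03. IL1RL1 encodes ST2, the receptor of IL-33. It had 555, 716 and 3126 counts in control and 4738, 4327 and 10806 in HGF-treated Detroit 562, where control 3 again lay nearest to the HGF libraries. It rose by 2.29 ± 0.56 on the log2 scale (adjusted p = 0.00893), or 3.54 without control 3. In FaDu it had 69, 111 and 228 counts in control and 661, 396 and 795 in HGF libraries (2.18, adjusted p = 0.475, and 0.000144 with the block), and SCC-9 libraries had 29 to 47 and 46 to 85 counts. Its ligand IL33, as given above, had at most 10 counts in any library.

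IL18R1, the receptor of IL-18, gave a log2 fold change of 1.88 (adjusted p = 0.00746) in Detroit 562, but 99.9% of the extent of IL1RL1 lies inside that of IL18R1 on the same strand, and a read there was counted for both genes. With the IL1RL1 counts taken away, a setting added after the data were seen, IL18R1 had 690, 676 and 871 counts in control and 842, 777 and 1058 in HGF-treated Detroit 562. The difference was then 0.37 (adjusted p = 0.272, and 0.00448 with the block at 0.36) and was not called in either fit. In FaDu the remainder gave 0.69 (adjusted p = 0.580) and was called with the block only (0.68, adjusted p = 0.00466). SCC-9 gave 0.02. The partner chain IL18RAP had 0 to 8 counts per library.

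**Figure D4:**
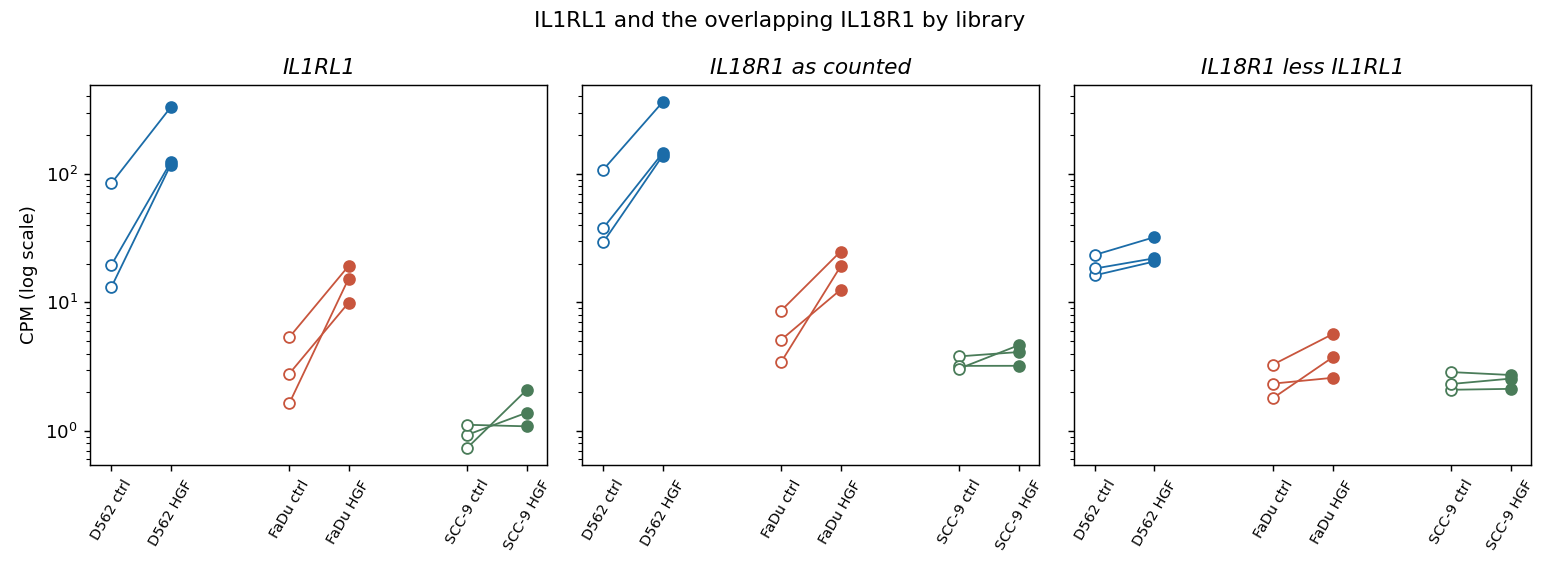
The panels plot CPM on a log axis for IL1RL1, for IL18R1 as counted and for IL18R1 less the IL1RL1 counts, with open circles for control, filled circles for HGF and lines joining same-numbered libraries. The steep lines of Detroit 562 and FaDu in the middle panel become less steep once the shared counts are taken away, but still rise.

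Of the processing and signaling genes, CASP1 was at 87.9 ± 22.0 CPM in control and 55.8 ± 12.7 CPM in HGF-treated Detroit 562 (SD, n = 3, log2 -0.66 ± 0.25, adjusted p = 0.0605). This call was lost without control 1 (-0.54, adjusted p = 0.221), control 2 (-0.56, adjusted p = 0.186) or HGF library 3 (-0.48, adjusted p = 0.223). TAB3, an adaptor of the kinase TAK1, gave -0.43 ± 0.09 (adjusted p = 0.00439) and fell under the threshold of size without control 1 (-0.40) or HGF library 1 (-0.33). IRAK1 gave 0.36 ± 0.08 (adjusted p = 0.00643), under the threshold of size, and 0.43 without control 3. MYD88, TRAF6, IRAK4, MAP3K7 and the remaining tested genes were not called. In FaDu and SCC-9 none of the 23 was called without the block. With it, IL1RL1 and IL18R1 up and CASP1 down (-0.56, adjusted p = 0.000176) were called in FaDu, the inflammasome sensor NLRP3 in SCC-9 (0.77, adjusted p = 0.00531), and NLRP1 in addition in Detroit 562 (1.23, adjusted p = 0.0737). The NLRP1 call rested on low counts, 11, 9 and 4 in control and 17, 12 and 24 in HGF libraries of Detroit 562.

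IL36A, IL36B, IL37, IL1F10, IL18RAP and CASP5 had at most 10 counts in any library and were not tested. The first 4 lie in the cytokine cluster between IL1B and IL1RN, where IL36G had 0 to 65 and IL36RN 11 to 249 counts per library. In the receptor cluster IL1RL2, the IL-36 receptor, had 82 to 683 counts.

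For each tested member, the gene with the most similar pattern was sought among 13127 candidates, with Pearson's r of log2 CPM given as a description, since the points share lines and libraries. Over the 18 libraries these were HYOU1 for IL1A (r = 0.988), ZNF83 for IL1B (0.996), DAZAP2 for IL1RN (0.980), KLF13 for IL1R1 (0.992), SH2D5 for IL1R2 (0.968), COG6 for IL1RAP (0.909), PDK1 for IL18 (0.919), KDM5C for IL36G (0.972) and PTPRS for IL36RN (0.989). Over the 9 differences of HGF minus control between same-numbered libraries, they were RAC1 for IL1A (0.976), IL31RA for IL1B (0.983), ZDHHC3 for IL1RN (0.997), RP11-47I22.4 for IL1R1 (0.994), CD68 for IL1R2 (0.984), RAB1A for IL1RAP (0.953), PRIM2 for IL18 (0.934), KCNMB3 for IL36G (0.868) and GRIK2 for IL36RN (0.986). No gene was the nearest to more than 1 member on either measure.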

How the data were processed

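mRNA was sequenced from 18 libraries, 3 for each of 6 groups. Per the labels and the study's methods, the authors made stranded poly(A) libraries, demultiplexed with bcl2fastq 2.20.0.422, trimmed with Cutadapt, aligned with STAR 2.5.2b to GRCh38.p12 with GENCODE 28 and counted reads per gene extent and strand with bedtools. The deposited values are raw counts, not normalized. Reads in genes that overlap on a strand count for each.

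The analysis used R 4.3.3, edgeR 4.0.16 and limma 3.58.1. filterByExpr on the 6 groups left 15475 of 19901 genes, 9 of the 10 members among them. TMM factors and a quasi-likelihood model with 1 mean per group over all libraries gave the effect of HGF per line, the difference of effects between lines, and the differences between untreated lines. Differences between responses were called at an adjusted p below 0.1 alone. Intervals of 95% are 1.96 SE either way, a normal multiplier, so with few libraries they are somewhat narrower than the test implies. CPM used TMM factors, and CPM per kb the union of exons in GENCODE 44, while counts include introns, which affects comparisons between genes. The fits were tested on simulated data. Alternatives were the replicate block, DESeq2 1.42.0, other size factors, other filters, only the groups compared, and leaving out each library.

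Deviations from the group mean correlated at 0.376 to 0.708 between control and HGF libraries of the same number within a line. Between different numbers the averages were -0.310 to -0.218. Deviations cancel within a group, so negative averages follow from positive same-number values and are no further support. The highest different-number value was 0.349 in Detroit 562 (control 1 with HGF 2), 0.178 in FaDu and -0.154 in SCC-9. Numbers 1 and 2 of Detroit 562 were thus poorly told apart. The numbers were taken as pairs within a line. This comes from the data: the methods say that the experiment was repeated, but no source ties a number to a repeat. Between lines the same number gave -0.189 to 0.466 in controls, and lines were not paired.

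The members were named by symbol, and the members, the pathway list and the tests were chosen with earlier results of these data known. Named are all members, the listed pathway genes, DUSP6, the marker genes and, for each tested member, the gene with the highest r (mean of at least 50 counts, no overlap with a member, log2 of CPM plus 0.5). With 0 to 10 counts per library, IL33 and, in Detroit 562, IL36G are known with little precision.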

Additional observations from a re-analysis of the deposited data

How the results depend on the processing

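Of 1259 alternative values for single members, 1213 kept their side of the threshold, 31 gained a call and 15 lost one. In 45 cases the value took the other sign, 0 of them called in either fit. Among these, IL36G in Detroit 562 turned from -1.34 to 0.37 without control 1. The replicate block, which takes same-numbered libraries of a line as pairs, moved the members called in FaDu from 0 to 4, those with a different response from 0 to 4 between Detroit 562 and FaDu, 0 to 6 between Detroit 562 and SCC-9 and 0 to 1 between FaDu and SCC-9, and the pathway genes called from 0 to 3 in FaDu and 0 to 1 in SCC-9. It changed no member's call in Detroit 562 or SCC-9. DESeq2 gave 1 member in FaDu with and without its prior, and without it 1 and 3 members with a different response for Detroit 562 against FaDu and against SCC-9. Fitting only the libraries compared gave 1 in the last comparison (IL1B). Leaving out each library in turn gave 0 to 1 and 0 to 2 members in these comparisons, the highest without Detroit 562 control 3, and 2 to 6 pathway genes called in Detroit 562, with 2 without control 1 and 6 without control 3, where IRAK1 and IRAK2 were added. Against untreated SCC-9, IL18 in Detroit 562 crossed the threshold of size under upper-quartile factors (-0.43) and with a block shared by the 3 lines (-0.40). For DESeq2 and the fits on fewer libraries the share of all genes called was not taken, so these counts cannot be set against it. The causes were not tested. IL33 and IL36G in Detroit 562 are limited by counts of 10 or fewer per library, and 3 libraries per group cannot give an exact permutation p below 0.1.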
